A study of Mus musculus with 6 samples.

Results

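This account concerns 10 genes for cytokine receptors of blood stem and progenitor cells: Kit, Il6ra, Il6st, Csf2ra, Il3ra, Csf2rb, Csf2rb2, Il1r1, Tgfbr1 and Tgfbr2. They were taken by gene symbol from the 55573 genes of the deposited table, where each symbol had 1 row, and all 10 passed the filter on low counts, which kept 20646 genes. The libraries were made from LSK cells, a lineage-negative, Sca-1-positive and c-Kit-positive fraction of mouse bone marrow that is enriched for stem cells and multipotent progenitors. The mutant mice were heterozygous for R355X in Etv6, the gene of an ETS-family repressor of transcription (the labels also write this genotype as Etv6+/-), and gave 3 libraries. Wild-type animals, Etv6+/+, gave the other 3. Both genotypes were C57BL/6J mice 3 months old, with no treatment given in the labels.

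Cytokine receptors let progenitors sense the factors that set survival, division and lineage output. Kit is a receptor tyrosine kinase for stem cell factor. Il6ra binds interleukin 6 and hands it to the signal-transducing chain gp130, encoded by Il6st. Csf2ra and Il3ra are the ligand-binding alpha chains for GM-CSF and interleukin 3, and they signal through the common beta chain Csf2rb. The mouse has a further beta chain gene, Csf2rb2, whose product serves interleukin 3 alone. Il1r1 is the signalling receptor for interleukin 1, and Tgfbr2 and Tgfbr1 are the serine/threonine kinases that together receive TGF beta, a factor known for keeping stem cells quiescent.

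Csf2rb2 and Csf2rb lie beside each other on chromosome 15 and are close copies, so their sequences are shown first: they bear on whether reads can be told apart. Csf2rb2 lies from 78282507 to 78305721 on the minus strand of mm10 and Csf2rb from 78325752 to 78353847 on the plus strand. Over 2628 aligned bases, the longest coding sequences of the pair were 95.2% identical. The first 150 coding bases of each are printed from the GENCODE M21 transcripts, with capitals at the 6 bases where the copies differ. In mm10 these bases span chr15:78297041-78298229 for Csf2rb2 and chr15:78335207-78336409 for Csf2rb, intron sequence included.
Csf2rb2: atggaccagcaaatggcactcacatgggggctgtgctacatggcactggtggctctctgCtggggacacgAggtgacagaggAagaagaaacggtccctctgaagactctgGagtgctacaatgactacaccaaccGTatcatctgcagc
Csf2rb: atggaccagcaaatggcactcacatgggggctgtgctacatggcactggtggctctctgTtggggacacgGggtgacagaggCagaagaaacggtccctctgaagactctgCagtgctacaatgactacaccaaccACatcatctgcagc
Of the windows of 50 bases in the longest coding transcript of Csf2rb2, 19.0% were also found in that of Csf2rb, and of windows of 100 bases 7.2%. RSEM can give a fractional count where it shares a read between genes, and 11 of the 12 expected counts of the pair were whole numbers within 0.001. All 6 counts of Csf2rb were whole, and the fractional count, of Csf2rb2, lay 0.14 from a whole number. Mir7676-1, a microRNA gene that shares 62 exon bases with Csf2rb2, had a highest count of 0.14.

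Depth ranged from 45194733 to 92151105 expected counts in Etv6 R355X/+ libraries and from 47866157 to 60776281 in WT libraries. Ribosomal RNA, mitochondrial included, took 29.4% of the counts of mutant replicate 1, the deepest library, and 25.2% to 27.3% of those of the other 5. Without mitochondrial ribosomal RNA the share was 9.87% in mutant replicate 1 and 6.73% to 7.45% in the other 5. Etv6 itself measured 305, 341 and 386 CPM (expected counts as a rate over the TMM-scaled library size) in Etv6 R355X/+ libraries, against 454, 419 and 400.1 CPM in WT libraries. The genotypes did not overlap (exact two-sided permutation p = 0.1, the smallest possible here), at a log2 fold change of -0.30 with SE 0.086 and an adjusted p of 0.245 in edgeR's quasi-likelihood test. Etv6 passed with DESeq2 (adjusted p = 0.0491) and in edgeR with no count filter (adjusted p = 0.0111), and over all alternatives its adjusted p ran from 0.0111 to 0.565. The sort markers were present in both genotypes, with Ly6a, the gene of Sca-1, averaging 78.2 CPM in Etv6 R355X/+ and 85.8 CPM in WT, and the progenitor marker Cd34 293 CPM in Etv6 R355X/+ and 309 CPM in WT. Of the 9 LSK markers, a list that includes Kit, 0 passed edgeR's test, and the median log2 fold change was -0.13. A fold change above 0 was found for 1 of them, against 50.6% of all tested genes. At an unadjusted p under 0.05 there were 2, Cd48 and the stem cell marker Procr, against 10.6% of all tested genes. Genotypes did not overlap in 16.3% of all tested genes. Procr measured 15.8, 15.8 and 17.2 CPM in Etv6 R355X/+ libraries, against 22.1, 23.8 and 19.8 CPM in WT libraries, with no overlap (edgeR adjusted p = 0.169).

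None of the 10 receptor genes passed edgeR's quasi-likelihood test between the genotypes with Benjamini-Hochberg adjustment over all genes at 0.05. Of all tested genes, 0.266% passed. The members' adjusted p ran from 0.438 to 0.997. At an unadjusted p under 0.05 there was 1 member, Csf2rb2, against 10.6% of all tested genes. DESeq2 called 1.57% of all tested genes and limma-voom 0.199%, and both called 0 members. Fold changes above 0 were found for 5 of the 10 members, against 50.6% of all tested genes, with a median log2 fold change of -0.011, against 0.0019 over all tested genes. The genotypes did not overlap for 1 member, again Csf2rb2, against 16.3% of all tested genes in either direction (8.44% higher and 7.84% lower in Etv6 R355X/+). A p that misses the threshold does not show equal levels, so the 95% interval of each fitted level is given with it. These are bulk libraries, in which fewer cells of a type and less RNA per cell cannot be told apart.

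**Figure D1:**
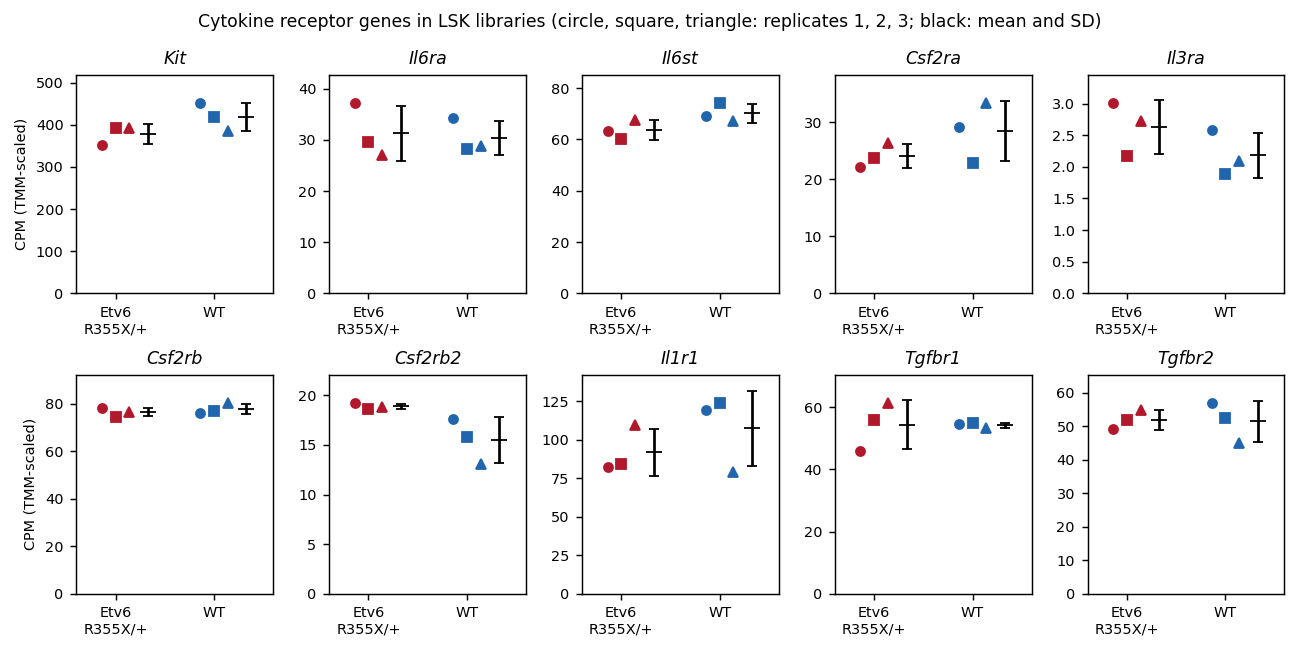
CPM (TMM-scaled) of the 10 receptor genes in each library, Etv6 R355X/+ left and WT right in each panel, with the mean and SD in black (n = 3 each). Only the panel of Csf2rb2 shows genotypes that do not overlap, with Etv6 R355X/+ libraries from 18.7 to 19.2 CPM and WT libraries from 13.0 to 17.6 CPM. The genotypes also did not overlap in 16.3% of all tested genes.

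Per length, Kit stood far above the others and Il3ra far below. Levels were set on CPM per kilobase of the longest annotated transcript, since counts of genes of unequal length do not compare. Kit measured 72.2 ± 4.48 in Etv6 R355X/+ and 79.9 ± 6.30 in WT (SD, n = 3 each) on this scale, and its lowest library lay above the highest of any other member. Il1r1 followed at 15.8 ± 2.63 in Etv6 R355X/+ and 18.5 ± 4.23 in WT, and Csf2rb at 15.6 ± 0.350 in Etv6 R355X/+ and 15.9 ± 0.435 in WT. The ranges of these 2 genes over the 6 libraries overlapped, so their order is not set. Csf2ra (10.6 ± 0.918 in Etv6 R355X/+ and 12.5 ± 2.34 in WT), Tgfbr1 (9.44 ± 1.36 in Etv6 R355X/+ and 9.41 ± 0.149 in WT), Il6st (7.33 ± 0.441 in Etv6 R355X/+ and 8.08 ± 0.422 in WT) and Tgfbr2 (6.42 ± 0.356 in Etv6 R355X/+ and 6.36 ± 0.751 in WT) came next, each overlapping its neighbour in that order. Csf2rb2 (3.99 ± 0.0563 in Etv6 R355X/+ and 3.27 ± 0.488 in WT) and Il6ra (3.62 ± 0.613 in Etv6 R355X/+ and 3.52 ± 0.389 in WT) overlapped each other and lay below Tgfbr2. Il3ra was lowest, at 1.14 ± 0.184 in Etv6 R355X/+ and 0.944 ± 0.154 in WT, with no overlap with Il6ra. With merged exon length in place of the longest transcript, Tgfbr2 came above Il6st, Il1r1 and Csf2rb no longer overlapped, Csf2rb and Csf2ra did, and Kit came to 42.5 ± 2.63 in Etv6 R355X/+ and 47.0 ± 3.71 in WT.

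**Figure D2:**
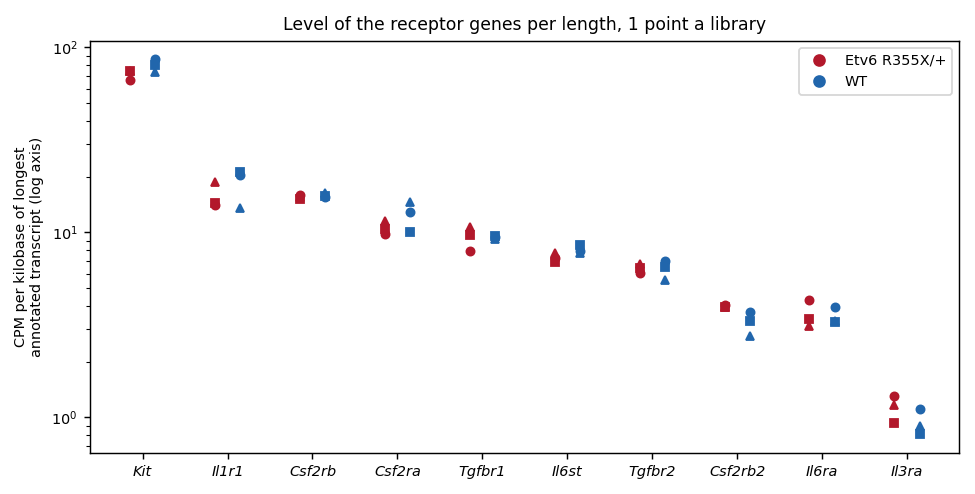
CPM per kilobase of the longest annotated transcript (log axis) for each receptor gene, 1 point a library, Etv6 R355X/+ in red left of WT in blue. Kit lies between 67.0 and 86.1 and Il3ra between 0.814 and 1.30 over the 6 libraries.

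Kit (ENSMUSG00000005672.12, chromosome 5 from 75574916 to 75656722 in mm10) measured 351, 393 and 391 CPM in Etv6 R355X/+ libraries, against 451, 419 and 385 CPM in WT libraries. The genotypes overlapped, because WT replicate 3 lay under 2 of the mutant libraries. The fitted level was 90.3% of WT (95% interval 80.7% to 101%), with a log2 fold change of -0.15 (SE 0.074, edgeR adjusted p = 0.525). Leaving out single libraries gave -0.20 (without WT replicate 3) to -0.088 (without WT replicate 1), with -0.096 without mutant replicate 1. Over the LSK markers the median was -0.13, and whether this bears on the value of Kit was not tested. The cells were enriched and sorted on c-Kit protein, so this level describes cells that already carry the receptor. Its ligand gene Kitl, singled out here and below with the other ligands for what it encodes and outside the naming rule, was near the limit of detection, at 0.316 ± 0.225 CPM in Etv6 R355X/+ and 0.408 ± 0.111 CPM in WT. The 3 genes most like Kit across the 6 libraries, out of 8773 others averaging at least 10 CPM, were Nfatc3, Hacd4 and Dcaf17, with Pearson r of log2 CPM of 0.992, 0.989 and 0.988. With 6 libraries and this many candidates, such values describe these libraries only.

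Among genes that act downstream of Kit, none passed edgeR's test with the count filter. Of the 21 genes of the Kit pathway list, all tested, 0 passed in either direction, and the median log2 fold change was -0.0082. At an unadjusted p under 0.05, 2 were higher and 2 lower, against 10.6% of all tested genes in either direction. Fyn, a Src family kinase, measured 39.2 ± 4.38 CPM in Etv6 R355X/+ and 31.2 ± 1.47 CPM in WT (edgeR adjusted p = 0.244), and passed with no count filter (adjusted p = 0.0474). Sh2b2, an adaptor that binds activated receptor kinases, measured 10.7 ± 1.84 CPM in Etv6 R355X/+ and 14.8 ± 0.605 CPM in WT (edgeR adjusted p = 0.245), and DESeq2 called it (adjusted p = 0.032). Dok2, a docking protein that dampens kinase signals, measured 23.9 ± 3.72 CPM in Etv6 R355X/+ and 18.003 ± 1.69 CPM in WT (edgeR adjusted p = 0.278). In each of these 3 genes the genotypes did not overlap, which held for 16.3% of all tested genes. They were named for the smallest p of the list, so this is no further support.

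Among the interleukin 6 receptor chains, Il6st was the higher in every library in CPM per kilobase. Il6st (chromosome 13 from 112464070 to 112510086) measured 63.1, 60.003 and 67.6 CPM in Etv6 R355X/+ libraries, against 69.1, 74.2 and 67.1 CPM in WT libraries. Only mutant replicate 3 reached the WT range, above WT replicate 3. Il6st was fitted at 90.7% of WT (95% interval 81.6% to 101%; log2 fold change -0.14, SE 0.069, edgeR adjusted p = 0.512).

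Il6ra (chromosome 3 from 89864059 to 89913196) measured 37.2, 29.6 and 27.0 CPM in Etv6 R355X/+ libraries, against 34.3, 28.2 and 28.7 CPM in WT libraries. The genotypes overlapped throughout, and the first replicate was the highest of each. Il6ra was fitted at 103% of WT (95% interval 85.1% to 125%; edgeR adjusted p = 0.945), and the log2 fold change of 0.042 was -0.10 without mutant replicate 1 and -0.0087 without WT replicate 2. The ratio of Il6ra to Il6st counts within a library, which does not depend on scaling, was 0.494 ± 0.0950 in Etv6 R355X/+ and 0.435 ± 0.0581 in WT (exact two-sided permutation p = 0.5, adjusted over 5 ratios p = 0.625). With 3 against 3 libraries such a test cannot give less than 0.1.

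Around gp130, the gene nearest the threshold encodes a cytokine subunit. Of 17 tested genes of the gp130 list, 0 passed, and the median log2 fold change was -0.12. At an unadjusted p under 0.05, 1 was higher and 2 lower, against 10.6% of all tested genes in either direction. Ebi3, a subunit of interleukin 27 and interleukin 35, measured 26.8, 31.1 and 28.7 CPM in Etv6 R355X/+ libraries, against 21.7, 20.1 and 17.7 CPM in WT libraries. Every mutant library lay above every WT library, at 145% of WT (95% interval 124% to 170%; edgeR adjusted p = 0.0789). Ebi3 was named for its small p, and 8.44% of all tested genes also lay higher in Etv6 R355X/+ without overlap. DESeq2 called Ebi3 (adjusted p = 0.000355), as did edgeR with no count filter (adjusted p = 0.000948) and with a robust fit (adjusted p = 0.0415). Over all alternatives its adjusted p ran from 0.000355 to 0.289. Il11ra1, the interleukin 11 receptor alpha chain, measured 12.3 ± 0.575 CPM in Etv6 R355X/+ and 15.2 ± 1.41 CPM in WT (edgeR adjusted p = 0.376). Cntf, a neurotrophic cytokine of the same family, measured 1.71 ± 0.320 CPM in Etv6 R355X/+ and 2.48 ± 0.181 CPM in WT (edgeR adjusted p = 0.436). Interleukin 6 itself was scarce, with Il6 at 0.157 ± 0.0577 CPM in Etv6 R355X/+ and 0.241 ± 0.137 CPM in WT.

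The beta chain pair held the 1 member of 10 whose genotypes did not overlap, against 16.3% of all tested genes. Csf2rb2 (ENSMUSG00000071714.7) measured 19.2, 18.7 and 18.8 CPM in Etv6 R355X/+ libraries, against 17.6, 15.8 and 13.0 CPM in WT libraries. The mutant libraries lay close together, with a coefficient of variation of 1.41%, against 14.9% among the WT libraries. The fitted level was 122% of WT (95% interval 102% to 146%), with a log2 fold change of 0.29 (SE 0.12), an unadjusted p of 0.0367 and an adjusted p of 0.438 in edgeR's test. The log2 fold change was 0.18 without WT replicate 3, the lowest library (edgeR adjusted p = 0.624), and over all alternatives the adjusted p ran from 0.299 to 0.703.

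Csf2rb (ENSMUSG00000071713.6) varied little within either genotype, with coefficients of variation of 2.24% in Etv6 R355X/+ and 2.74% in WT. It measured 78.1, 74.7 and 76.6 CPM in Etv6 R355X/+ libraries, against 76.3, 76.9 and 80.3 CPM in WT libraries. The genotypes overlapped, and the fitted level was 98.3% of WT (95% interval 89.97% to 107%; log2 fold change -0.025, SE 0.058, edgeR adjusted p = 0.926). Counted together as 1 row, Csf2rb plus Csf2rb2 came to 95.4 ± 1.97 CPM in Etv6 R355X/+ and 93.3 ± 0.609 CPM in WT. The summed level was 102% of WT (95% interval 94.0% to 111%; edgeR adjusted p = 0.887), and this value does not depend on how reads were split between the copies.

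Within the pair, Csf2rb2 took 19.7%, 19.99% and 19.7% of the summed counts in Etv6 R355X/+ libraries, against 18.8%, 17.1% and 13.97% in WT libraries. All 3 mutant shares lay above all 3 WT shares. With Csf2rb nearly level over the libraries, the share and the ratio largely restate the values of Csf2rb2 above and are no separate result. The ratio of Csf2rb2 to Csf2rb was 0.247 ± 0.00236 in Etv6 R355X/+ and 0.1998 ± 0.0347 in WT. The exact two-sided permutation test gave 0.1, which is as low as 3 against 3 libraries can go, and p = 0.5 after adjustment over the 5 ratios.

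**Figure D3:**
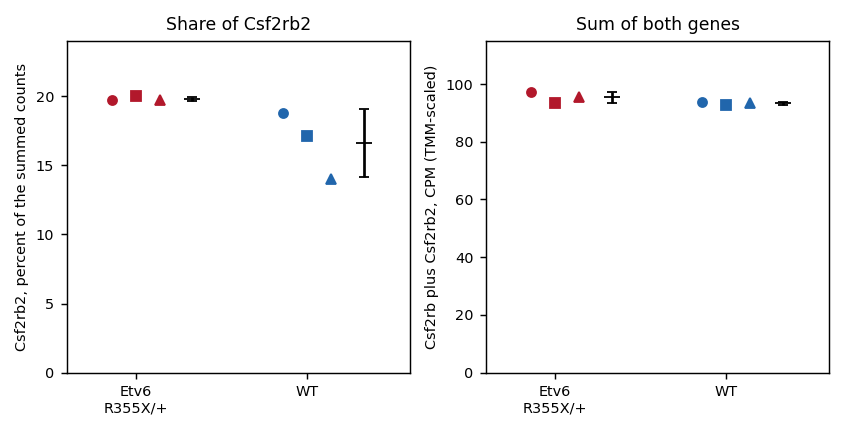
Left, counts of Csf2rb2 as a percentage of the summed counts of Csf2rb2 and Csf2rb; right, the sum of both in CPM (TMM-scaled); circle, square and triangle are replicates 1, 2 and 3, with the mean and SD in black. The share lies between 19.7% and 19.99% in Etv6 R355X/+ and between 13.97% and 18.8% in WT, while the sum lies between 92.7 and 97.3 CPM over all 6 libraries.

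The alpha chains that pair with these beta chains had fold changes of opposite sign and neither passed. Csf2ra, the GM-CSF receptor alpha chain (chromosome 19 from 61223957 to 61228429), measured 22.2, 23.7 and 26.3 CPM in Etv6 R355X/+ libraries, against 29.2, 22.8 and 33.4 CPM in WT libraries. WT replicate 2 lay within the mutant range and the other WT libraries above it. Csf2ra was fitted at 84.5% of WT (95% interval 69.0% to 104%; log2 fold change -0.24, SE 0.13, edgeR adjusted p = 0.565). The log2 fold change was -0.11 without WT replicate 3 and -0.38 without WT replicate 2.

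Il3ra, the interleukin 3 receptor alpha chain (chromosome 14 from 14346275 to 14356011), was the lowest member, with 263, 113 and 122 expected counts in Etv6 R355X/+ libraries and 158, 92 and 102 in WT libraries. That is 3.01, 2.17 and 2.72 CPM in Etv6 R355X/+ libraries, against 2.58, 1.88 and 2.09 CPM in WT libraries. The genotypes overlapped, and the first replicate was the highest of each. Il3ra was fitted at 120% of WT with a wide 95% interval, 86.2% to 168% (log2 fold change 0.27, SE 0.22, edgeR adjusted p = 0.715). The log2 fold change was 0.16 without mutant replicate 1, 0.17 without WT replicate 2 and 0.41 without WT replicate 1.

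Set against the summed beta chains, Csf2ra counts gave a ratio of 0.253 ± 0.0238 in Etv6 R355X/+ and 0.305 ± 0.0563 in WT (exact two-sided permutation p = 0.3). For Il3ra the ratio was 0.0275 ± 0.00393 in Etv6 R355X/+ and 0.0234 ± 0.00365 in WT (exact two-sided permutation p = 0.2). Both had a p of 0.5 after adjustment over the 5 ratios.

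Genes downstream of these receptors did not pass, and their ligand genes were nearly silent. Interleukin 3, GM-CSF and interleukin 5 genes were not tested, with Il3 listed at 0 in every library, Csf2 at no more than 1 count and Il5 at no more than 15 counts. Of the 12 tested genes of the common beta chain list, 0 passed, and the median log2 fold change was -0.014. At an unadjusted p under 0.05, 1 was lower, against 10.6% of all tested genes in either direction. That gene, Socs2, a STAT5-induced feedback inhibitor, measured 4.13 ± 0.610 CPM in Etv6 R355X/+ and 6.08 ± 1.62 CPM in WT (edgeR adjusted p = 0.399). The survival gene Bcl2l1 measured 9.16 ± 0.707 CPM in Etv6 R355X/+ and 7.37 ± 1.29 CPM in WT (edgeR adjusted p = 0.520), and the phosphatase gene Ptpn6 79.2 ± 4.69 CPM in Etv6 R355X/+ and 86.5 ± 1.99 CPM in WT (edgeR adjusted p = 0.521).

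Mast cells are also known to carry Kit. The summed level of 10 markers of mast cells and basophils was 132 to 144 CPM in Etv6 R355X/+ libraries, against 114 to 126 CPM in WT libraries. The largest part of that sum was Gata2, at 65.4 CPM in Etv6 R355X/+ and 62.5 CPM in WT on average. The 7 markers that were tested all had fold changes above 0, against 50.6% of all tested genes. The IgE receptor gene Fcer1a was 1 of them and passed (2.49 CPM in Etv6 R355X/+ and 0.499 CPM in WT on average). The mast cell protease genes Cma1 (0.246 CPM in Etv6 R355X/+ and 0.0683 CPM in WT), Mcpt4 (0 CPM in Etv6 R355X/+ and 0.0205 CPM in WT) and Tpsb2 (0.00639 CPM in Etv6 R355X/+ and 0 CPM in WT) were near 0. Macrophage markers summed to 75.1 to 109 CPM in Etv6 R355X/+ and 66.8 to 77.9 CPM in WT. Of the 7 tested, 6 had fold changes above 0. An unadjusted p under 0.05 in edgeR's test was found for 5, against 10.6% of all tested genes, and 0 passed. Neutrophil markers summed to 1633 to 2769 CPM in Etv6 R355X/+ and 2011 to 2341 CPM in WT. Of these 8, 5 had fold changes above 0 and 0 had an unadjusted p under 0.05. Of 8 erythroid markers, 4 had fold changes above 0 and 2 passed, against 0.266% of all tested genes. The part of such cells in the receptor values was not tested.

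Il1r1 (chromosome 1 from 40225080 to 40317257) had the widest spread of the members among the WT libraries. It measured 82.1, 83.9 and 109.5 CPM in Etv6 R355X/+ libraries, against 119, 124 and 79.0 CPM in WT libraries. WT replicate 3 was the lowest of all 6 and mutant replicate 3 the highest of its genotype, so the genotypes overlapped. The coefficient of variation was 16.7% in Etv6 R355X/+ and 22.9% in WT. The fitted level was 85.5% of WT (95% interval 67.0% to 109%; log2 fold change -0.23, SE 0.16, edgeR adjusted p = 0.662). Single libraries moved it: the log2 fold change was -0.41 without WT replicate 3, -0.37 without mutant replicate 3, -0.14 without WT replicate 1 and -0.11 without WT replicate 2. In WT replicate 3 the 9 LSK markers, Kit included, summed to 1445 CPM, against 1848 and 1786 CPM in WT replicates 1 and 2. Etv6 R355X/+ libraries had 1483, 1546 and 1650 CPM. The 8 erythroid markers summed to 366 CPM in WT replicate 3, against 200 and 206 CPM in WT replicates 1 and 2. They summed to 398, 359 and 235 CPM in Etv6 R355X/+ libraries. Whether this bears on the receptor values was not tested.

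Around the interleukin 1 receptor, the genes that encode its ligands were low. Il1b measured 2.26 ± 0.705 CPM in Etv6 R355X/+ and 1.71 ± 0.426 CPM in WT, Il1a 0.301 ± 0.144 CPM in Etv6 R355X/+ and 0.225 ± 0.0735 CPM in WT, and the antagonist gene Il1rn 1.498 ± 0.485 CPM in Etv6 R355X/+ and 1.145 ± 0.286 CPM in WT. None of these passed. Of the 21 genes of the interleukin 1 list, all tested, 0 passed, and the median log2 fold change was -0.042. At an unadjusted p under 0.05, 3 were higher and 2 lower, against 10.6% of all tested genes in either direction. Nfkbia, the NF-kappaB inhibitor that the pathway induces, measured 12.8 ± 0.643 CPM in Etv6 R355X/+ and 9.95 ± 0.129 CPM in WT (edgeR adjusted p = 0.277). Tab1 and Tab2 encode partners of the kinase TAK1. They measured 7.77 ± 1.20 CPM in Etv6 R355X/+ and 10.2 ± 0.847 CPM in WT for Tab1 and 199 ± 3.10 CPM in Etv6 R355X/+ and 181 ± 5.73 CPM in WT for Tab2 (edgeR adjusted p = 0.389 and 0.436). In these 3 genes the genotypes did not overlap, against 16.3% of all tested genes. Being the 3 of the list with the smallest p, they were likely to separate, so nothing is read from it.

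Both TGF beta receptor genes had nearly equal means in the genotypes. Tgfbr1 (chromosome 4 from 47353222 to 47414931) measured 45.8, 56.0 and 61.3 CPM in Etv6 R355X/+ libraries, against 54.5, 54.8 and 53.2 CPM in WT libraries. The WT libraries lay within the spread of the mutant ones, whose coefficient of variation was 14.4% against 1.58% in WT. Tgfbr1 was fitted at 100.2% of WT (95% interval 86.5% to 116%; edgeR adjusted p = 0.997).

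Tgfbr2 (chromosome 9 from 116084293 to 116175360) measured 49.1, 51.8 and 54.9 CPM in Etv6 R355X/+ libraries, against 56.9, 52.6 and 44.9 CPM in WT libraries. Here the mutant libraries lay within the spread of the WT ones. Tgfbr2 was fitted at 100.8% of WT (95% interval 87.9% to 116%; edgeR adjusted p = 0.981). With fold changes this close to 0, the sign of both genes turned under library size alone and when single libraries were left out. The ratio of Tgfbr2 to Tgfbr1 counts was 0.964 ± 0.0944 in Etv6 R355X/+ and 0.949 ± 0.1002 in WT (exact two-sided permutation p = 0.9, also after adjustment over the 5 ratios).

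**Figure D4:**
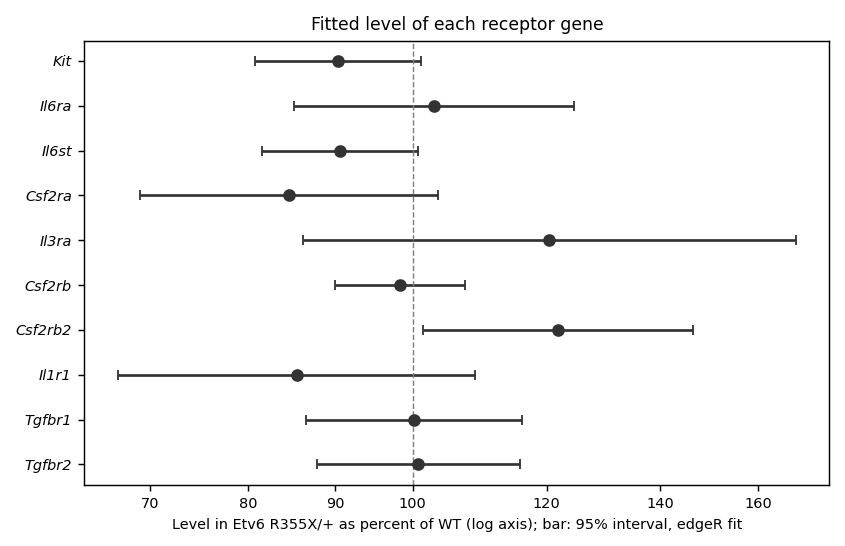
Fitted level of each receptor gene in Etv6 R355X/+ as a percentage of WT (log axis), with the 95% interval of the edgeR fit. The interval of Csf2rb2 starts at 102% and those of the other 9 genes include 100%, with the narrowest for Csf2rb (89.97% to 107%) and the widest for Il3ra (86.2% to 168%).

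Genes that supply or pass on the TGF beta signal did not pass with the count filter either. Tgfb1, which encodes a ligand of these receptors, measured 53.8 ± 2.85 CPM in Etv6 R355X/+ and 53.7 ± 4.33 CPM in WT. Of 31 tested genes of the TGF beta list, 0 passed, and the median log2 fold change was -0.026. At an unadjusted p under 0.05, 4 were higher and 2 lower, against 10.6% of all tested genes in either direction. Ltbp3, which holds latent TGF beta in the matrix, measured 32.3 ± 1.32 CPM in Etv6 R355X/+ and 42.0 ± 7.08 CPM in WT (edgeR adjusted p = 0.264), and passed with no count filter (adjusted p = 0.0195). Acvr1b, an activin type I receptor, measured 53.0 ± 6.01 CPM in Etv6 R355X/+ and 43.7 ± 2.27 CPM in WT (edgeR adjusted p = 0.296). Lrrc32, which presents latent TGF beta on the cell surface, was at the edge of detection with 0.512 ± 0.0842 CPM in Etv6 R355X/+ and 0.150 ± 0.119 CPM in WT (edgeR adjusted p = 0.313).

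Other receptors of these cells did not pass either. Of 25 further progenitor cytokine receptor genes, all tested, 0 passed, and the median log2 fold change was 0.0011. At an unadjusted p under 0.05, 7 were higher and 2 lower, against 10.6% of all tested genes in either direction. The list was chosen with earlier results of these data known, so these counts are a description only. Ifngr2, the interferon gamma receptor chain that signals through JAK2, measured 22.4 ± 1.68 CPM in Etv6 R355X/+ and 17.3 ± 0.787 CPM in WT (edgeR adjusted p = 0.208). Tek, the angiopoietin receptor, measured 11.3 ± 0.890 CPM in Etv6 R355X/+ and 8.35 ± 0.247 CPM in WT (edgeR adjusted p = 0.242). The genotypes overlapped in neither gene, but both were named for a small p, and 16.3% of all tested genes did not overlap. DESeq2 called both, with adjusted p of 0.0273 for Ifngr2 and 0.0427 for Tek. The 8 B cell markers summed to 135 to 295 CPM in Etv6 R355X/+ and 96.6 to 124 CPM in WT. All 8 had fold changes above 0, against 50.6% of all tested genes. An unadjusted p under 0.05 in edgeR's test was found for 7, against 10.6% of all tested genes, and 0 passed. The part of B cells in the values of this list was not tested.

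Over the 6 lists together, 122 of the 130 genes were tested and 0 passed, while 23% had an unadjusted p under 0.05. The share was 10.6% over all tested genes and 12.7% over those averaging at least 10 CPM. The lists share some genes and were chosen with earlier results of these data known, so the share is a description and nothing is read from it.

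**Figure D5:**
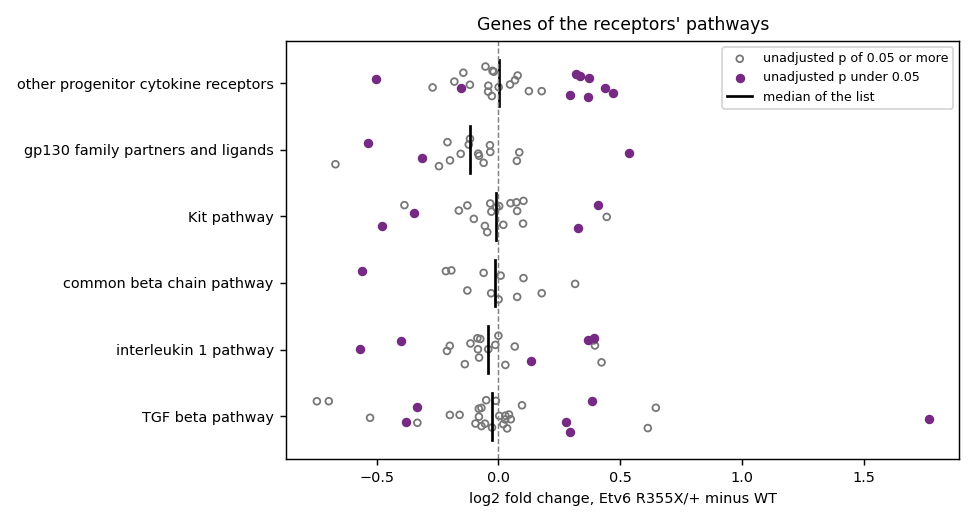
Log2 fold change (Etv6 R355X/+ minus WT) of the tested genes of 6 lists, 1 point a gene, filled at an unadjusted p under 0.05, with the median of each list as a black line. The medians lie between -0.12 for the gp130 list and 0.0011 for the other progenitor cytokine receptors, and none of the plotted genes passed with adjustment over all genes.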

How the data were processed

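RNA sequencing libraries of 3 Etv6 R355X/+ and 3 WT LSK samples were analysed. The deposited table holds RSEM expected counts per gene, not scaled for library size. Trim Galore 0.60, STAR 2.7 and RSEM 1.31 with build mm10 were used, per the submitters' processing notes; the annotation release is not given in the sources used here. Per the labels' protocols, total RNA was amplified with single-primer isothermal amplification. This kind of kit does not mark the strand. Opposite-strand genes can therefore share reads; an antisense gene with at most 4.06 counts overlaps Il6ra, one with at most 7 counts overlaps Il3ra, and one with at most 678 counts overlaps Etv6. The 92 spike-in rows, all at 0, were left out.

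Expected counts were rounded, filtered with filterByExpr and scaled by TMM, and genotypes were compared with edgeR 4.0.16's quasi-likelihood test (R 4.3.3), two-sided and without covariates. Intervals use the t quantile of that fit. Values are mean ± SD. Ratios of counts were compared with exact permutation tests. DESeq2 1.42.0, limma 3.58.1 (voom), a robust edgeR fit, other scalings and filters, unrounded counts, a replicate term, and leaving out libraries or gene classes were tried. The script was tested on simulated data.

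Positions and transcript lengths come from GENCODE M21 (mm10). The 10 receptor genes and the lists were chosen with earlier results of these data known. Beyond the members and Etv6, the rule for named genes took from each list the genes that passed, otherwise the 3 with the smallest p, and the 3 genes most like Kit. A gene that this rule named is not reported here. Ligand and marker genes are named as such. Libraries of 1 genotype all differed beyond counting noise (chi-square per gene 11.2 to 46.5). Whether each library is from its own animal is not said in the labels: the p-values reflect how these samples vary, possibly for technical reasons.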

Additional observations from a re-analysis of the deposited data

How the results depend on the processing

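Of 180 values of the 10 receptor genes under 18 alternatives, 167 kept their direction and none passed the threshold. The 13 that turned were all of genes with fold changes near 0. Some alternatives hardly change the fit, so the 180 values are not separate checks. The log2 fold change of Kit was -0.1466 in the main fit and with unrounded counts, and -0.1467 without mitochondrial genes. Log2 fold changes of Il6ra were -0.10 to 0.14 when single libraries were left out, with -0.0087 without WT replicate 2, and -0.14 without mutant replicate 1 and WT replicate 3 together. Those of Tgfbr1 were -0.029 with library size alone, -0.029 with limma-voom, -0.0062 with the replicate block, and -0.091 to 0.11 when single libraries were left out. Those of Tgfbr2 were -0.023 with library size alone, -0.038 without the pair of libraries, and -0.078 to 0.090 when single libraries were left out. The summed beta chains measured -0.0045 with library size alone, and the log2 ratio of Tgfbr2 to Tgfbr1 ranged from -0.059 to 0.095 when single libraries were left out. Library size alone lowers the median of all genes to -0.034.

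The count of genes called over the whole table, 55, was 325 with DESeq2, 527 with no count filter and 32 with the replicate block, and 16 to 67 when single libraries were left out. Same-numbered samples did not deviate together (correlations -0.081, -0.19 and -0.24), so the numbers were not taken as pairs. The replicate block changed the call of no receptor gene. The cause of these differences was not tested. The narrowest interval of a member spans 89.97% to 107% of WT, and that of Il3ra, with 92 to 263 counts a library, 86.2% to 168%.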
